A study of Homo sapiens with 6 samples.

Results

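The TRIM (tripartite motif) genes were examined as a family in MDA-MB-231, a human line of triple-negative breast cancer. Members are the genes whose symbols begin with TRIM followed by a digit or by L, and that had at least 1 array probe set naming only that gene. This gave 62 genes, measured by 165 probe sets, of 18132 genes in all. A further 18 symbols of this form, pseudogenes and readthrough genes among them, occurred only on probe sets that name several genes and are not members. Each gene is represented by its probe set with the highest mean over all arrays, and no measured difference was used to choose the members.

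TRIM proteins carry a RING finger, B-box zinc fingers and a coiled coil, followed by a domain that differs between subfamilies and usually binds the substrate. The RING recruits a ubiquitin-conjugating (E2) enzyme, so most members act as ubiquitin ligases, while a few lack the RING. Members are best known from antiviral innate immunity, where they tag sensors and adaptors such as RIG-I, MDA5 and STING, and from transcriptional repression, the centrosome and muscle protein turnover. Many of their genes are induced by interferon.

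The 2 groups were cells kept for 8 h with 5 µM SAHA (vorinostat) and cells kept for 8 h with its solvent DMSO, with 3 Affymetrix PrimeView arrays each. SAHA inhibits the zinc-dependent histone deacetylases. All arrays are of this 1 cell line, grown in DMEM/F12 with serum, and RNA of whole cultures was measured. The labels do not say whether replicates were separate cultures, and p-values then speak only to the spread among these arrays, which may be technical. Values are log2 expression values after RMA, which makes the arrays' distributions nearly equal. The sorted values of the arrays differed from their mean by at most 0.0936. In bulk RNA, a change in the number of cells and a change in RNA per cell cannot be told apart.

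Of 6 basal and mesenchymal markers of the line, all with a mean log2 value of at least 7, 5 fell, where 39.5% of all genes that bright fell (test given below). EGFR was at 7.39 ± 0.01 in SAHA and 9.26 ± 0.04 in DMSO arrays, while CAV1, CD44, ZEB1 and AXL fell by 0.71, 0.57, 0.45 and 0.38. VIM, which did not pass, stood at 14.02 ± 0.02 in SAHA and 13.96 ± 0.01 in DMSO arrays, and CDH1 at 4.17 ± 0.05 in SAHA and 4.20 ± 0.15 in DMSO arrays (SD, n = 3). Of 6 luminal and epithelial markers listed as lacking in this line, 1 rose and 1 fell. Of these, 3 had means under 5 and 3 had means of 5 to 7, where 11.9% and 39.4% of all genes passed the test. ESR1, PGR and KRT20 did not pass, with differences of 0.03, 0.10 and 0.07. ERBB3 was at 7.50 ± 0.34 in SAHA and 4.65 ± 0.30 in DMSO arrays, and GATA3 at 5.43 ± 0.12 in SAHA and 6.67 ± 0.08 in DMSO arrays; these markers are named after their values were seen. Their part in the results below was not tested. The ACTB control, a 3' minus 5' difference that tracks RNA integrity and amplification, was 0.61 ± 0.06 in SAHA and 0.89 ± 0.16 in DMSO arrays. Its two-sided exact permutation p was 0.1, the smallest that 3 against 3 arrays allow, and 0.167 after adjustment over 5 control measures. The GAPDH difference, 0.06 ± 0.02 in SAHA and 0.03 ± 0.02 in DMSO arrays, and the 28S rRNA control, 9.43 ± 0.06 in SAHA and 9.63 ± 0.03 in DMSO arrays, had the same p, while the poly-A and hybridization spike-ins had 0.2 and 1. The ACTB and 28S values lie along the same contrast as every result below, and their part in them was not tested. Correlations over all probe sets were 0.997 to 0.998 within groups and 0.968 to 0.97 between groups.

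After 8 h of SAHA, 14 TRIM genes were higher and 14 lower than in DMSO cells, and 34 did not pass the test. The test was limma over all 18132 genes with a Benjamini-Hochberg adjusted p under 0.05, and genes past it are here said to have risen or fallen, or to be called. The largest rises were those of TRIM2, TRIM4, TRIM62, TRIM36 and TRIM52, and the largest falls those of TRIM8, TRIM13, TRIM56 and TRIM65. These 9 changed by at least 2-fold, 5 up and 4 down. The share called among TRIM genes was 45.2%, against 48.3% of all genes. Rises made up 24.6% of all genes and falls 23.8%, and 2-fold rises and falls 5.93% and 4.47%. The family's median log2 fold change was -0.02, against -0.01 over all genes. The family's count and median were thus near those of all genes, and the changes lay in individual members. The balance depends on the scaling: with arrays centred on ribosomal protein genes, which shifts all genes by 0.10, 19 rose and 13 fell, and with centring on poly-A spike-ins, a shift of 0.16, 19 rose and 11 fell. The balance of all genes moved with it: 32% rose and 19.1% fell with the ribosomal protein centring, and 32.1% rose and 14.1% fell with the poly-A centring.

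**Figure D1:**
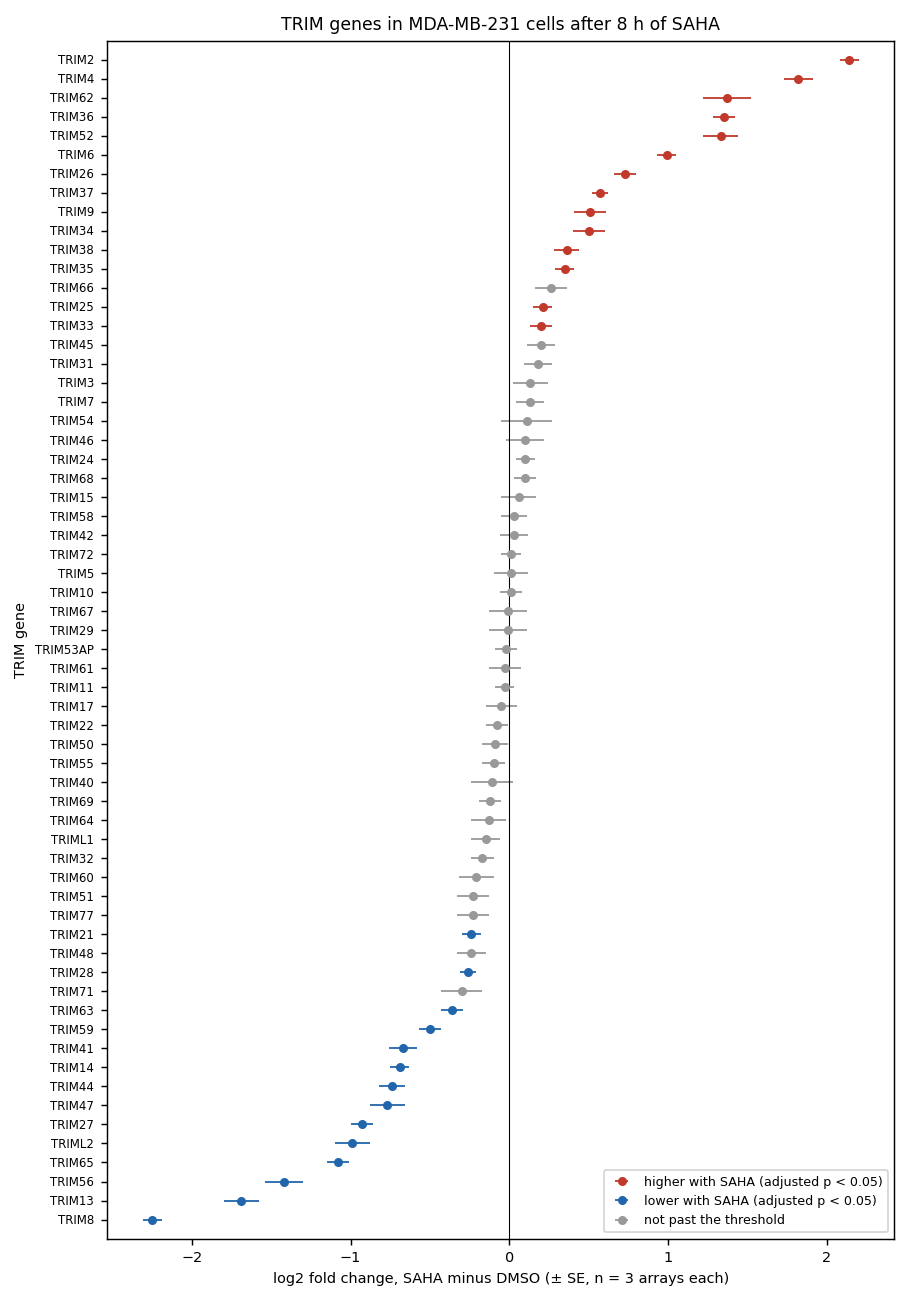
The log2 fold change of each of the 62 TRIM genes, SAHA minus DMSO, with the standard error from limma (n = 3 arrays per group), ordered by value. Red points rose, blue points fell and grey points did not pass; values run from -2.25 for TRIM8 to 2.14 for TRIM2, and 34 genes are grey.

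The calls were concentrated in bright probe sets, as they were over all genes. Of 25 TRIM genes with a mean log2 value of at least 7, 21 were called (84%), against 75.1% of all genes in that range. Of 19 between 5 and 7, 6 were called (31.6%), against 39.4% of all genes. Of 18 under 5, 1 was called (5.56%), against 11.9% of all genes. The files give no detection calls, so it is not known which of the dim genes were expressed. They include TRIM54 and TRIM55, known from striated muscle, as well as TRIM42, TRIM60 and TRIM77, and the mean values of these 5 lay between 3.07 and 4.32. The groups did not overlap in 32 TRIM genes, against 55.5% of all genes.

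**Figure D2:**
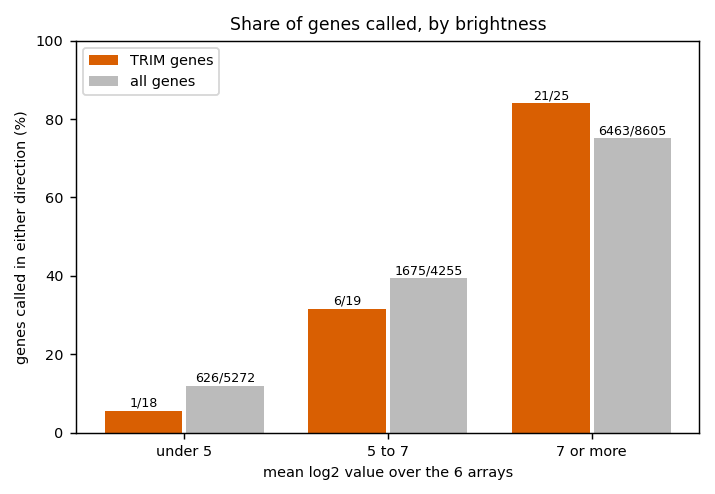
The percentage of genes called in either direction in 3 ranges of the mean log2 value over the 6 arrays, for TRIM genes (orange) and all genes (grey), with counts above the bars. The TRIM shares are 5.56%, 31.6% and 84%, beside 11.9%, 39.4% and 75.1% for all genes.

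TRIM2 rose most. It belongs to the subfamily with a filamin-like domain and NHL repeats, is most abundant in the nervous system, and ubiquitinates neurofilament light chain. Its log2 values were 8.72, 8.75 and 8.89 in SAHA arrays, against 6.61, 6.68 and 6.65 in DMSO arrays. Every SAHA array lay above every DMSO array, and the rise was 2.14 ± 0.06 (SE; 4.40-fold, adjusted p = 2.96e-07). All 3 of its probe sets rose, by 1.98 to 2.14. The other NHL and filamin-domain members did not pass. TRIM32, whose mutation causes a limb-girdle muscular dystrophy, was at -0.17 ± 0.07 (adjusted p = 0.0688), although its 3 SAHA values lay below its 3 DMSO values. TRIM3, a brain-enriched relative of TRIM2, was at 0.13 ± 0.11, TRIM45 at 0.20 ± 0.09, and TRIM71, a stem cell protein that represses mRNAs, at -0.30 ± 0.13 in a dim probe set.

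TRIM4, which promotes ubiquitination of the RNA sensor RIG-I, was the next largest rise. It had values of 8.07, 7.88 and 8.05 in SAHA arrays, against 6.09, 6.34 and 6.09 in DMSO arrays, a change of 1.82 ± 0.09 (3.54-fold, adjusted p = 2.11e-06). Its probe sets did not move together. Of 6, 4 rose, by 0.45 to 1.82, the third brightest was at -0.19 ± 0.09 (adjusted p = 0.117 over probe sets), and another fell by 0.60 ± 0.12 (adjusted p = 0.00385 over probe sets). TRIM4 was the 1 member with probe sets called in both directions, and averaging its probe sets gave 0.62.

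TRIM62, also known as DEAR1, shapes the acini of mammary epithelium in culture. It was at 6.48, 6.21 and 6.02 in SAHA arrays, against 5.11, 4.87 and 4.62 in DMSO arrays. The lowest SAHA value was clear of the highest DMSO value, and the rise was 1.37 ± 0.15 (2.58-fold, adjusted p = 0.000138), with all 3 probe sets higher, by 0.43 to 1.37. TRIM52, a short member that has lost the SPRY domain of its relatives, was at 7.88, 7.83 and 8.04 in SAHA arrays, against 6.40, 6.81 and 6.55 in DMSO arrays. It rose by 1.33 ± 0.11 (2.52-fold, adjusted p = 2.83e-05) and by 0.59 in its other, dim probe set.

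Of 8 measured members with a COS box, a microtubule-binding motif, 2 rose and 1 fell (37.5% called, against 48.3% of all genes), and 4 of the 5 uncalled ones had means under 5. TRIM36 is one of those that rose. Its values were 9.24, 9.19 and 9.19 in SAHA arrays, against 7.73, 7.89 and 7.95 in DMSO arrays, a rise of 1.35 ± 0.07 (2.55-fold, adjusted p = 2.57e-06). Its second brightest probe set rose by 1.13 ± 0.08, while the other 3 did not pass, at 0.04 to 0.18, and the mean over its probe sets gave 0.56. TRIM9, a COS-box ligase of neurons, rose by 0.51 ± 0.10 (adjusted p = 0.00344) in its brightest probe set. Its dimmer probe sets rose by 1.80 ± 0.10 and 1.52 ± 0.17, so the gene's value depends on the probe set, and the mean gave 1.28. TRIM63, the muscle ligase MuRF1, fell by 0.36 ± 0.07 (adjusted p = 0.0045). That call was lost with its second brightest probe set, at -0.17, and with centring on poly-A spike-ins, at -0.20. The other 5 measured members with a COS box, TRIM42, TRIM46, TRIM54, TRIM55 and TRIM67, did not pass and lay between -0.10 and 0.11.

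TRIM6 helps to activate the kinase IKK-epsilon by making unanchored ubiquitin chains. It was at 7.19, 7.04 and 7.11 in SAHA arrays, against 6.15, 6.16 and 6.06 in DMSO arrays, and rose by 0.99 ± 0.06 (1.98-fold, adjusted p = 6.81e-06). With its other probe set the change was 0.46 and did not pass (adjusted p = 0.0886). TRIM26, which acts on the IRF3 arm of innate immunity, was at 8.68, 8.71 and 8.64 in SAHA arrays, against 7.95, 8.06 and 7.82 in DMSO arrays. It rose by 0.73 ± 0.07 (adjusted p = 7.86e-05), with 4 of 4 probe sets higher, by 0.60 to 0.73. TRIM37, a MATH-domain ligase that limits the assembly of extra centrosomes and lies in a region often amplified in breast cancer, was at 10.02, 10.05 and 10.05 in SAHA arrays. It was at 9.48, 9.43 and 9.49 in DMSO arrays, and rose by 0.57 ± 0.05 (adjusted p = 4.28e-05), again with 4 of 4 probe sets higher.

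**Figure D3:**
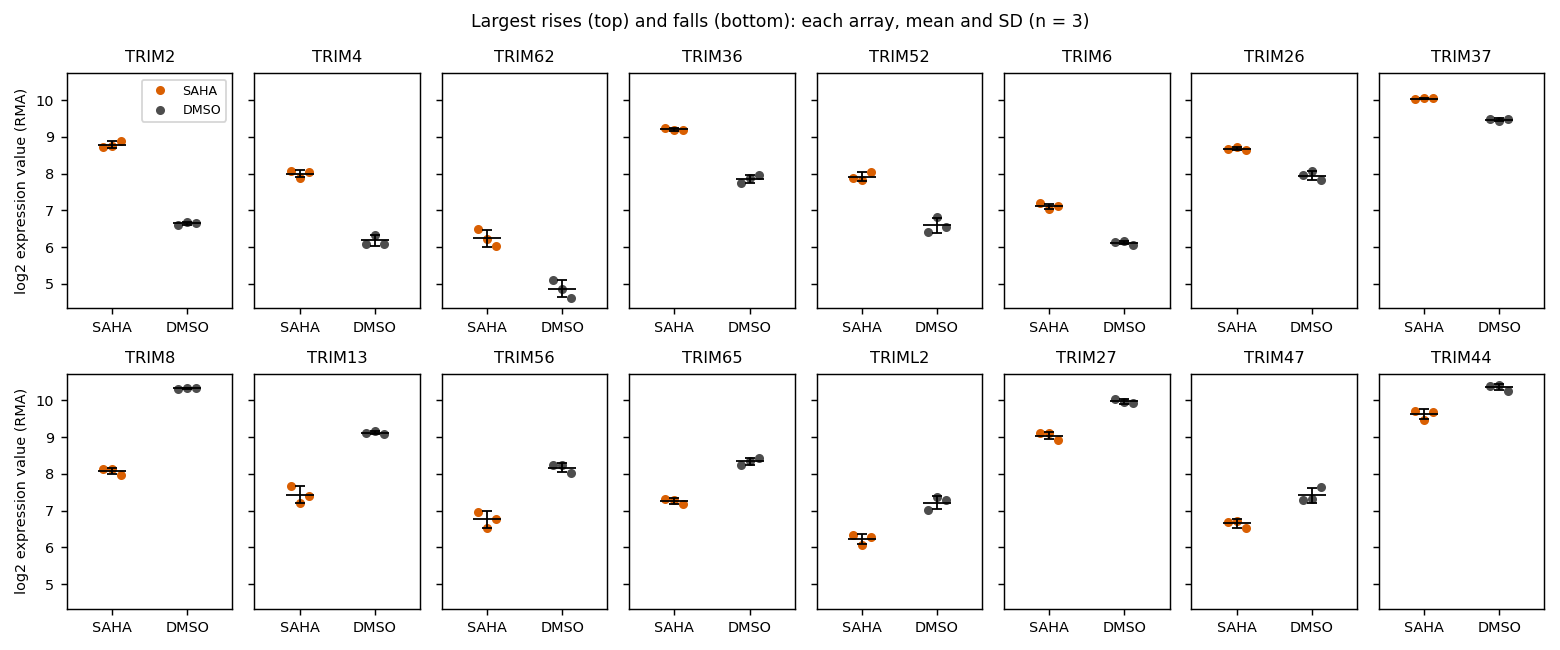
Log2 expression values of each array (points) with mean and SD (bars, n = 3) for the 8 largest rises (top row) and the 8 largest falls (bottom row), SAHA left of DMSO in each panel. Only called genes whose groups do not overlap were eligible, so the lack of overlap in the panels follows from the choice. TRIM2 stands at 8.79 in SAHA against 6.65 in DMSO arrays, and TRIM8 at 8.08 in SAHA against 10.33 in DMSO arrays.

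TRIM8 fell most. It ubiquitinates TAK1 in TNF and IL-1 signalling and destabilizes SOCS1, the inhibitor of JAK kinases. Its values were 8.13, 8.13 and 7.98 in SAHA arrays, against 10.31, 10.34 and 10.34 in DMSO arrays. The groups were far apart for the spread within them. TRIM8 fell by 2.25 ± 0.06 (4.75-fold, adjusted p = 2.4e-07), and its 3 probe sets all fell, with values of -2.25, -1.93 and -1.06. TRIM8 is among the 7 measured members with no known domain after the coiled coil, of which 1 rose, 3 fell and 3 did not pass. The 4 that were called are those with a mean of at least 7, a range in which 75.1% of all genes were called.

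Both members with a membrane anchor fell, in the range of means of at least 7 in which 39.5% of all genes fell. TRIM13, a ligase of protein quality control at the endoplasmic reticulum, was at 7.68, 7.22 and 7.40 in SAHA arrays, against 9.11, 9.17 and 9.08 in DMSO arrays. It fell by 1.69 ± 0.11 (3.23-fold, adjusted p = 8.44e-06), with 4 of 5 probe sets lower and the fifth at -0.16 ± 0.16 (adjusted p = 0.465 over probe sets). TRIM59 fell by 0.50 ± 0.07 (adjusted p = 0.000619), in 2 of 2 probe sets.

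TRIM56 and TRIM65 act on sensors of foreign nucleic acid. TRIM56, which promotes signalling by cGAS and STING, was at 6.97, 6.53 and 6.78 in SAHA arrays, against 8.24, 8.24 and 8.03 in DMSO arrays. It fell by 1.42 ± 0.12 (2.67-fold, adjusted p = 2.81e-05). TRIM65, which ubiquitinates the RNA sensor MDA5, was at 7.31, 7.30 and 7.18 in SAHA arrays, against 8.25, 8.34 and 8.44 in DMSO arrays. It fell by 1.08 ± 0.07 (2.11-fold, adjusted p = 8.25e-06). Each is measured by 1 probe set, so neither fall has a second measurement in these arrays.

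TRIM27, first found fused to the RET kinase in transformed cells, was at 9.10, 9.11 and 8.92 in SAHA arrays, against 10.03, 9.95 and 9.92 in DMSO arrays. Its 3 probe sets fell by 0.91 to 1.03, and the gene's value was -0.93 ± 0.07 (adjusted p = 1.71e-05). TRIM47 was at 6.70, 6.72 and 6.52 in SAHA arrays, against 7.29, 7.31 and 7.65 in DMSO arrays, and fell by 0.77 ± 0.11 (adjusted p = 0.00056). TRIM41 fell by 0.67 ± 0.09 (adjusted p = 0.000485), with 3 of 4 probe sets lower.

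Of 5 measured members without a RING, 3 fell and 2 did not pass, where 23.8% of all genes fell. The 3 that fell had the higher means, 6.72, 9.99 and 9.34, against 4.66 and 5.46 for the others. Both members with means of at least 7 fell, where 39.5% of all genes that bright fell. Of the 2 with means between 5 and 7, 1 fell, where 15.1% of all genes in that range fell. The part of brightness in the count was not tested. TRIML2, which interacts with p53, was at 6.34, 6.07 and 6.27 in SAHA arrays, against 7.02, 7.36 and 7.28 in DMSO arrays, and fell by 0.99 ± 0.11 (adjusted p = 0.000122). TRIM44, which carries a zinc finger of the kind found in deubiquitinases, was at 9.72, 9.46 and 9.68 in SAHA arrays, against 10.38, 10.42 and 10.26 in DMSO arrays. It fell by 0.74 ± 0.08 (adjusted p = 0.000167), in 3 of 3 probe sets. TRIM14, an adaptor of antiviral signalling at mitochondria, was at 9.07, 8.98 and 8.94 in SAHA arrays, against 9.67, 9.67 and 9.72 in DMSO arrays. It fell by 0.69 ± 0.06 (adjusted p = 3.06e-05), with 3 of 4 probe sets lower. Its only probe set not shared by similar transcripts, a dim one, gave 0.13 (adjusted p = 0.252). TRIM29, a regulator of innate immunity in epithelia and macrophages, was at -0.01 ± 0.12 in a dim probe set, and TRIM66 is described with its relatives next.

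The PHD-bromodomain members, which act in the nucleus as transcriptional coregulators, moved by no more than 0.26 in either direction. TRIM28 (KAP1), the corepressor of KRAB zinc finger proteins, was at 10.82, 10.77 and 10.72 in SAHA arrays, against 11.0, 11.03 and 11.06 in DMSO arrays. The groups did not overlap, and it fell by 0.26 ± 0.05 (adjusted p = 0.00474). With centring on poly-A spike-ins the value was -0.10 and did not pass. TRIM33, a regulator of SMAD4, was at 9.92, 9.85 and 9.91 in SAHA arrays, against 9.58, 9.75 and 9.76 in DMSO arrays. Its rise of 0.20 ± 0.07 (adjusted p = 0.0426) did not hold in 8 of 16 alternatives. Among these were the fits without SAHA replicate 1, 2 or 3 (0.18, 0.22 and 0.19) and without DMSO replicate 1 or 2 (0.14 and 0.22). It was also lost with the replicate block (adjusted p = 0.0834). Its second brightest probe set rose by 0.33 ± 0.07, and the dimmest was at 0.02 ± 0.06. TRIM24, a coregulator of nuclear receptors, was at 9.0, 8.99 and 8.91 in SAHA arrays, against 8.88, 8.92 and 8.79 in DMSO arrays, a difference of 0.10 ± 0.06 that did not pass (adjusted p = 0.221). TRIM66 was at 5.46, 5.57 and 5.76 in SAHA arrays, against 5.44, 5.41 and 5.16 in DMSO arrays, at 0.26 ± 0.10 (adjusted p = 0.0762).

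Most genes listed as acting with TRIM28 in silencing were lower in SAHA cells. Of 13 measured, 8 fell and 4 rose, with a median of -0.35. All 13 had means of at least 7, where 39.5% of all genes fell and 35.7% rose. SETDB1, the histone H3 methyltransferase that TRIM28 recruits, fell by 0.89 ± 0.07 (adjusted p = 1.54e-05), at 6.80 ± 0.05 in SAHA and 7.68 ± 0.09 in DMSO arrays (SD, n = 3). TASOR, of the HUSH silencing complex, fell by 0.81 ± 0.06, and the DNA methyltransferase DNMT1 by 0.47 ± 0.05. MPHOSPH8, also of the HUSH complex, rose by 0.72 ± 0.06, and MORC3 by 0.31 ± 0.06. These genes were listed with earlier results of the same arrays known.

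The interferon-induced members moved in both directions. Of 11 measured, 4 rose, 3 fell and 4 did not pass, with a median of 0.01. The share called was 63.6%, against 48.3% of all genes, and 5 of the 7 calls came from the 5 members with a mean of at least 7. Besides TRIM26, the rises were those of TRIM38, TRIM34 and TRIM25, and besides TRIM56 and TRIM14 the third fall was that of TRIM21. TRIM38, which turns off TAB2 and TAB3 in TNF signalling, was at 7.96, 8.19 and 7.98 in SAHA arrays, against 7.77, 7.66 and 7.63 in DMSO arrays. It rose by 0.36 ± 0.08 (adjusted p = 0.00615) and by 0.56 ± 0.06 in its other probe set. TRIM34, close in sequence to TRIM6, was dim, at 4.64 ± 0.10 in SAHA and 4.14 ± 0.18 in DMSO arrays, and rose by 0.50 ± 0.10 (adjusted p = 0.00365). The array holds 2 brighter probe sets annotated to TRIM34 together with the readthrough gene TRIM6-TRIM34, which are not counted as TRIM34. They stood at 7.87 in SAHA and 6.44 in DMSO arrays, and at 6.82 in SAHA and 5.53 in DMSO arrays, differences of 1.42 ± 0.06 and 1.3 ± 0.09. The size of the rise of TRIM34 is therefore uncertain.

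TRIM25, a ligase of RIG-I, was at 10.11, 10.06 and 10.00 in SAHA arrays, against 9.86, 9.79 and 9.89 in DMSO arrays. It rose by 0.21 ± 0.06 (adjusted p = 0.0165), and its other, dimmer probe set gave 0.01 ± 0.08. The call was also lost with the mean of its probe sets (0.11), without SAHA replicate 1 (0.19) and without DMSO replicate 2 (0.19). TRIM21, the cytosolic antibody receptor, was at 6.54, 6.56 and 6.48 in SAHA arrays, against 6.71, 6.74 and 6.87 in DMSO arrays. It fell by 0.24 ± 0.06 (adjusted p = 0.0131), a call lost without SAHA replicate 3 (-0.22) and with centring on ribosomal protein genes (-0.14) or on poly-A spike-ins (-0.08). TRIM5, which restricts retroviral capsids, was at 6.80, 6.84 and 6.81 in SAHA arrays, against 7.06, 6.75 and 6.60 in DMSO arrays, with a difference of 0.01 ± 0.11 (adjusted p = 0.943). TRIM22, an antiviral protein of the nucleus, was at 5.5, 5.45 and 5.47 in SAHA arrays, against 5.64, 5.63 and 5.41 in DMSO arrays, at -0.08 ± 0.07 (adjusted p = 0.419). For both, the SAHA arrays lay within the range of the DMSO arrays. None of the 6 probe sets of TRIM22 or the 3 of TRIM5 passed in limma's test over probe sets, where 46.4% of all probe sets were called and the smallest adjusted p among these 9 was 0.247. TRIM31 and TRIM69 were dim and did not pass, at 0.18 ± 0.09 and -0.12 ± 0.07.

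Letters of the interferon-stimulated response element occurred in promoters of TRIM genes that rose, fell or did not pass, as a description with no test. Promoters here are windows of 300 bases that span a transcription start in RefSeq (build GRCh38.p14), and 48 of the 62 members had an entry. Members without an entry, TRIM4, TRIM8, TRIM13, TRIM22, TRIM27 and TRIM28 among them, were not searched. The motif, GAAA, any 2 bases and GAAA again, on either strand was found in 8 of these members (16.7%), against 4.38% of 27305 genes. The 8 matches are shown with 20 bases on either side, 5' to 3' on the gene's strand, with the match in capitals. In TRIM21 and TRIM26 a pair of overlapping matches is joined.
TRIM2, chr4:153151926-153151975, plus strand: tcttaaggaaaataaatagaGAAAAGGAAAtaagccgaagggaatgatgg
TRIM26, chr6:30213565-30213620, minus strand: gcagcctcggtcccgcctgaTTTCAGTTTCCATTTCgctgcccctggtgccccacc
TRIM34, chr11:5624891-5624940, plus strand: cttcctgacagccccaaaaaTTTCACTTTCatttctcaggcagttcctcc
TRIM44, chr11:35662720-35662769, plus strand: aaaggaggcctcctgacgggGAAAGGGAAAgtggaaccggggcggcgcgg
TRIM14, chr9:98119219-98119268, minus strand: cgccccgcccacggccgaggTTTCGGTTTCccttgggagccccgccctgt
TRIM21, chr11:4393653-4393705, minus strand: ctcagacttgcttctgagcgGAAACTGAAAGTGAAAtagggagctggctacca
TRIM5, chr11:5685072-5685121, minus strand: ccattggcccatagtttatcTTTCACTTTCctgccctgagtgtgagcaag
TRIM69, chr15:44736446-44736495, plus strand: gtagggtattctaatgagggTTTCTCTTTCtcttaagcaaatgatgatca
Of these 8 genes, TRIM2, TRIM26 and TRIM34 rose, TRIM44, TRIM14 and TRIM21 fell, and TRIM5 and TRIM69 did not pass. Over all genes 48.3% were called. With means of at least 7, the range of TRIM2, TRIM26, TRIM44 and TRIM14, 75.1% of all genes were called. The match in TRIM2 lies at 1 of its 6 listed starts, and that in TRIM34 at 1 of 2. A match of letters describes the window and is not evidence of binding.

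The GC box GGGCGG, on either strand and with overlaps counted, was found in 29 of the 48 members (60.4%), against 48.3% of all genes. The promoters of TRIM62, which rose, and TRIM65, which fell, are shown because both hold several boxes, in capitals, 6 in TRIM62 and 4 in TRIM65. For TRIM62 this is the one of its listed starts that holds any. Boxes of this kind thus stand in promoters of members that moved in opposite directions. They also stand in promoters of members that did not pass, TRIM32 and TRIM68 among them.
TRIM62, chr1:33181994-33182293, minus strand: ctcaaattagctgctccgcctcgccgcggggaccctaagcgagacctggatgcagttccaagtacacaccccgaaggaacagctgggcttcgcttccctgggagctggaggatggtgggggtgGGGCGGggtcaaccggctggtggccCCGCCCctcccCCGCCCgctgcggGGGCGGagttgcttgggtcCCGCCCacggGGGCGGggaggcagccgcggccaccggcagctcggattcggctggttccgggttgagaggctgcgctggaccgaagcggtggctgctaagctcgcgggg
TRIM65, chr17:75896902-75897201, minus strand: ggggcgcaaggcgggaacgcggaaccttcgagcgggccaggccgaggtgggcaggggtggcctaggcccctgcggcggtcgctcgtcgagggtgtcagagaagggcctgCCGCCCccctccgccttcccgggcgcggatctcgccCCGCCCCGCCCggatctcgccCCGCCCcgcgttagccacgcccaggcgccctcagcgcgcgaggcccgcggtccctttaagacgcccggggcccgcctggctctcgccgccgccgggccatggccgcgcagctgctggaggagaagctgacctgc

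Among the remaining members with a PRY-SPRY domain, the family's largest group, TRIM35, which inhibits the glycolytic enzyme PKM2, was called. It rose by 0.35 ± 0.06 (adjusted p = 0.00134), and its second brightest probe set gave 0.10 and did not pass. Over the whole PRY-SPRY group of 34 measured genes, 8 rose, 7 fell and 19 did not pass, with a median of -0.04 (44.1% called, against 48.3% of all genes). TRIM11, which acts in protein quality control, was at 8.82 ± 0.09 in SAHA and 8.85 ± 0.03 in DMSO arrays, a difference of -0.03 ± 0.06. TRIM68, a coactivator of the androgen receptor, was at 7.54 ± 0.11 in SAHA and 7.43 ± 0.03 in DMSO arrays, a difference of 0.10 ± 0.07. These 2, with TRIM24 and TRIM32, were the 4 members with a mean log2 value of at least 7 that did not pass. Of the other members not yet described, TRIM7 and TRIM15 were at 0.13 ± 0.09 and 0.06 ± 0.11 and did not pass. TRIM10, TRIM17, TRIM40, TRIM48, TRIM50, TRIM51, TRIM58, TRIM61, TRIM64, TRIM72, TRIML1 and the pseudogene TRIM53AP did not pass either and lay between -0.24 and 0.03. TRIM60 and TRIM77, both dim, were at -0.21 ± 0.11 and -0.23 ± 0.10.

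The number of probe sets limits how firmly a member's change is known. Of the 28 called members, 22 had several probe sets, and in 12 of these every probe set was called in the same direction. They were TRIM2, TRIM62, TRIM52, TRIM26, TRIM37, TRIM9, TRIM38, TRIM8, TRIML2, TRIM27, TRIM44 and TRIM59. Over all 165 TRIM probe sets, 33 rose (22.2% over all probe sets) and 32 fell (24.1% over all probe sets). In 3 uncalled members another, dimmer probe set was called. TRIM31 had one that rose by 0.31 ± 0.07, TRIM46 one that fell by 0.31 ± 0.08, and TRIM29 one that fell by 0.27 ± 0.09 (adjusted p = 0.0468 over probe sets).

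**Figure D4:**
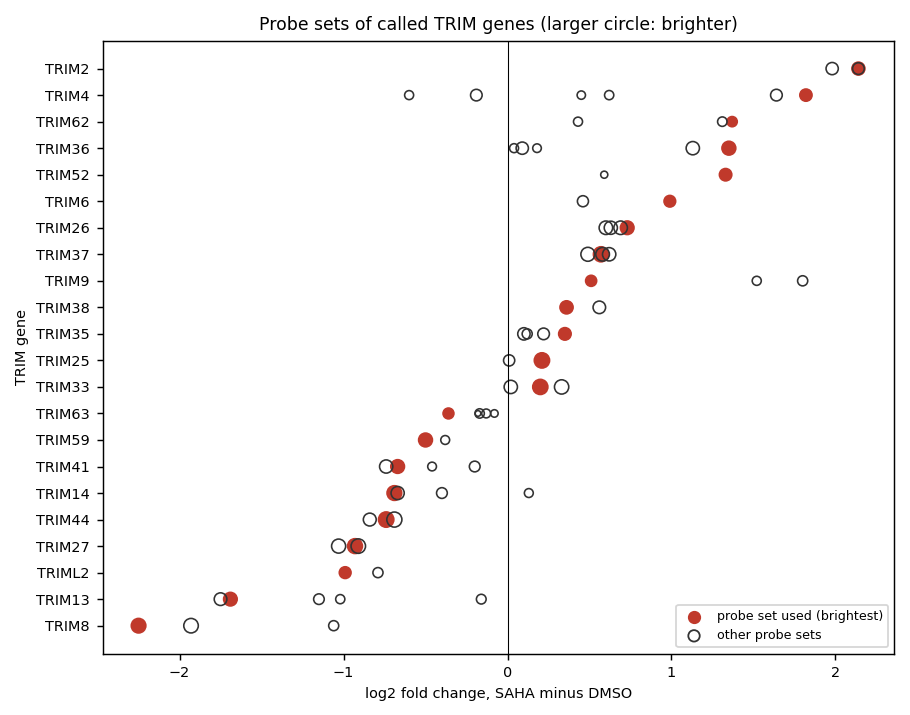
The log2 fold change, SAHA minus DMSO, of every probe set of the 22 called TRIM genes that have several. The probe set used is filled red, others are open, and larger circles are brighter; TRIM4 has probe sets on both sides of 0, while the dimmer probe sets of TRIM9, at 1.80 and 1.52, lie beyond the one used, at 0.51.

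With protein-coding genes ordered by lowest RefSeq coordinate, TRIM readthrough genes left out, 12 pairs of measured members stand next to each other. Strand, gene ends and overlaps were not considered. In 2 pairs (16.7%) both genes were called, against 27.4% of 15454 such pairs over all genes. They were TRIM6 with TRIM34 (both higher) and TRIM47 with TRIM65 (both lower). In 5 pairs 1 gene was called, and in 5 neither was. In this order TRIM5, at 0.01, stands before TRIM6, at 0.99, and TRIM22, at -0.08, stands after TRIM34, at 0.50. The TRIM5 window shown above lies at a higher coordinate than that of TRIM34, so its place beside this pair is uncertain. TRIM15, at 0.06, is beside TRIM26, at 0.73, and TRIM7, at 0.13, is beside TRIM41, at -0.67.

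Of 9 measured family members under other symbols, 2 rose and 7 did not pass, where 48.3% of all genes were called. The 2 that rose are those with means of at least 7, where 75.1% of all genes were called. Of the others, 4 had means under 5 and 3 had means of 5 to 7, where 11.9% and 39.4% of all genes were called. PML, or TRIM19, which organizes nuclear bodies, rose by 0.87 ± 0.07 (adjusted p = 1.79e-05), at 8.05 ± 0.11 in SAHA and 7.18 ± 0.01 in DMSO arrays. MID1, or TRIM18, a microtubule-bound ligase mutated in Opitz syndrome, rose by 0.46 ± 0.06 (adjusted p = 0.000253), while its paralog MID2 was at -0.01 ± 0.07. MEFV, the pyrin gene of familial Mediterranean fever, was at 0.10 ± 0.08, and CMYA5, BSPRY, FSD1, RFPL1 and RFPL2 lay between -0.23 and 0.04.

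Genes of ubiquitin transfer, of RNA and DNA sensing and of interferon signalling also moved both ways. The E1 and E2 list is a general one, and which of its enzymes work with TRIM ligases was not tested. Of 28 measured E1 and E2 enzymes of ubiquitin transfer, 13 fell and 9 rose, with a median of -0.15. All 28 had means of at least 7, and the share called, 78.6%, was near the 75.1% of all genes that bright. UBE2Q2 fell by 1.40 ± 0.06 and UBE2J1, of the endoplasmic reticulum, by 1.35 ± 0.06. UBE2H rose by 1.34 ± 0.07, and UBE2L6, which transfers the ubiquitin-like ISG15, by 1.17 ± 0.05. Of 18 genes of RNA and DNA sensing, 9 fell and 5 rose, with a median of -0.19. Of the 15 with means of at least 7, 12 were called (80%). CGAS, the DNA sensor whose pathway TRIM56 and TRIM14 serve, fell by 2.19 ± 0.05 (4.56-fold, adjusted p = 1.47e-07). RNF135, another ligase of RIG-I, fell by 1.80 ± 0.07, TRAF3 by 1.49 ± 0.08 and the adaptor TICAM1 (TRIF) by 1.28 ± 0.07. IRF7 rose by 0.78 ± 0.13 and TAB3 by 0.60 ± 0.07. Of 14 measured genes of interferon signalling, 6 rose and 3 fell, with a median of 0.17, all 9 among the 10 with means of at least 7 (90% called). JAK1 rose by 1.07 ± 0.05 and the receptor gene IFNGR1 by 0.80 ± 0.05, while IFNGR2 fell by 1.94 ± 0.06 and IRF2 by 1.39 ± 0.07. Both of these lists are likewise to be read against the 75.1% of all genes that bright.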

How the data were processed

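Per the labels' protocols, total RNA was turned into biotin-labelled cRNA by 3' in vitro transcription for PrimeView arrays. The authors deposited 1 log2 value per probe set and array. RMA comes from the submitters' processing notes, while its software is not given in the sources used here. RMA makes distributions nearly equal, so a shift of most transcripts one way cannot be read. Fold changes of dim probe sets can be understated.

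Of 49395 probe sets, 102 are array controls, and 44988 name 1 gene in GEO's platform annotation. Symbols were checked by Entrez identifier against RefSeq, which changed none and did not match 27 probe sets. SAHA minus DMSO was tested with limma 3.58.1 in R 4.3.3 (lmFit and eBayes, two-sided, no covariate, no filter on level), with Benjamini-Hochberg adjustment at 0.05 over all 18132 genes, and separately over 49293 probe sets. The procedure was tested on simulated data. The number of arrays limits precision.

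Values per array are given for the 8 largest rises and falls whose groups do not overlap, for the PHD-bromodomain members and for interferon-induced members with a mean of at least 5. In each list of other genes the 4 smallest p and the 2 smallest among called genes that moved against most are named, and every measured family member under another symbol; the sequences, and the members named from the subfamilies, were chosen after their values were seen. Members, lists and tests were chosen with earlier results of these data known. Of 78 listed TRIM genes, 17 were not analysed here, and protein sequences were not used here. Alternatives were a replicate block, the mean or second brightest probe set, no probe sets ending in _x_at or _s_at (designs shared by similar transcripts), a mean of at least 5, repeated quantile normalization, 2 centrings, trend and robust moderation, leaving out each array, a threshold of 0.01, and probe sets in place of genes. Figures were drawn with matplotlib 3.10.9.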

Additional observations from a re-analysis of the deposited data

Results flagged for a closer look

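Of the 15 probe sets that name a TRIM gene together with others, 2 rose and 8 fell in limma's test over all probe sets, in which 22.2% of all probe sets rose and 24.1% fell. They stand outside the gene-level comparison, and the 2 that rose are singled out as signal above the DMSO arrays. These 2 are the probe sets already given beside TRIM34 above. One of them was at 7.87 in SAHA and 6.44 in DMSO arrays, a difference of 1.42 ± 0.06 (adjusted p = 1.35e-06). The other was at 6.82 in SAHA and 5.53 in DMSO arrays, a difference of 1.3 ± 0.09 (adjusted p = 1.26e-05). Both are annotated to TRIM34 and the readthrough gene TRIM6-TRIM34, so neither was given to a single gene, and both bear on the smaller rise reported for TRIM34. The 8 that fell are annotated to TRIM39 with its readthrough (4 probe sets, -0.44 to -0.60), TRIM16 with TRIM16L (-0.57 and -0.62), TRIM73 with TRIM74 (-0.23), and TRIM48 with several others (-0.56).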

How the results depend on the processing

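Of the 28 called TRIM genes, 20 were called in the same direction in every other setting that could be run for them, 7 lost the call in at least 1, and 1 changed sign: TRIM14 was at 0.13 without probe sets ending in _x_at or _s_at, where another, dim probe set stands for it. The second brightest probe set, which 47 TRIM genes have, gave 8 lower TRIM genes and 5627 called genes in all, against 14 and 8764, with fewer genes tested. Without each array in turn, 12 to 14 TRIM genes were higher and 13 to 17 lower, and 8069 to 8486 genes were called in all. Same-numbered SAHA and DMSO arrays did not deviate together (r of -0.126, -0.07 and -0.041 over genes), so the numbers are not taken as pairs. With the replicate block 13 TRIM genes were higher, 14 lower and 8291 genes called, and none of the 6 arrays correlated best with the array of its own number. Of the 34 uncalled TRIM genes, 13 passed in at least 1 other setting. No detection calls come with the values, so the changes of dim probe sets are the least certain.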
